A study of Arabidopsis thaliana with 4 samples.

Results

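Transcription factors of the MYB, NAC, ERF, bHLH, bZIP and homeobox families were followed in Arabidopsis thaliana roots exposed to the root-colonizing fungus P. indica. The members are all probe sets of the ATH1 array that the platform annotation pairs with 1 gene and whose gene symbol begins with MYB, NAC or ANAC, ERF, bHLH, bZIP, or HB and a number, without WRKY genes. This gave 21 of the 22746 probe sets that are not controls, for 21 genes. Of them 14 are bZIP genes, 5 are bHLH genes, 1 is a NAC gene and 1 is a MYB-like gene, while 0 ERF and 0 HB symbols met the rule, so the values below describe mainly bZIP and bHLH factors and not all 6 families. The annotation used here leaves 8730 probe sets without a gene and pairs 503 with several, and genes of these families that it does not name were not analysed here. Genes it lists under another symbol are given at the end. The RefSeq symbol of all 21 genes belongs to the same family as the platform symbol.

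The 4 arrays hold roots of wild type seedlings (ecotype Columbia-0) exposed to a fungal plug for 2 d, roots exposed to an agar plug without hyphae (mock) for 2 d, and the same pair after 6 d. By the labels the seedlings were 12 d old on the earlier and 16 d old on the later pair, and the plug stood at a distance from the root, so that the roots and hyphae had no contact at the earlier time point. The sources differ on the material: the tissue label and the source name give root, the extraction text names roots and shoots, and a description line speaks of early embryos. The samples are called roots here after the tissue label. There is 1 array per condition, and the sources used here do not say whether the independent experiments of the study were pooled into it. No difference below therefore has a replicate error or a p-value, and the fold values describe these 4 arrays.

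Transcription factors of these families bind short DNA elements and set the transcription of their target genes. Proteins of the bHLH family dimerize through a helix-loop-helix and bind E-box elements, and a small set of them in Arabidopsis forms the cascade that switches on iron uptake in roots. Proteins of the bZIP family dimerize through a leucine zipper and bind elements with an ACGT core. They include sensors of misfolded proteins in the endoplasmic reticulum (ER), regulators of zinc uptake, and the group S factors, which are linked to sugar and energy supply. Many of these proteins are controlled after transcription, by splicing, membrane release, translation or dimerization, none of which is read by a probe set.

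The values are linear MAS5 signals. Signals under a floor of 22.2, the mean of the 40th percentiles of the arrays, were set to it before log2 ratios were formed, and a probe set is called measured in a pair if its brighter array lay above the floor. Of the 10 listed root genes the annotation names 2, PYK10 and EXPA7, and both lay above the floor on all 4 arrays. Of the 8 listed genes of green shoot tissue it names 3. The sum of their signals at 2 d was 293.5 in exposed roots against 402.8 in mock-treated roots, and at 6 d 739.2 in exposed roots against 509.6 in mock-treated roots. The part of green tissue in the results was not tested, and in bulk RNA fewer cells of a type and less RNA per cell cannot be told apart. Signals of all 18 hybridization control probe sets were brighter at 6 d than at 2 d, by medians of 0.59 (exposed) and 0.54 (mock) on the log2 scale. Within the 2 d pair the median difference was 0.07 and within the 6 d pair 0.10.

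**Figure D1:**
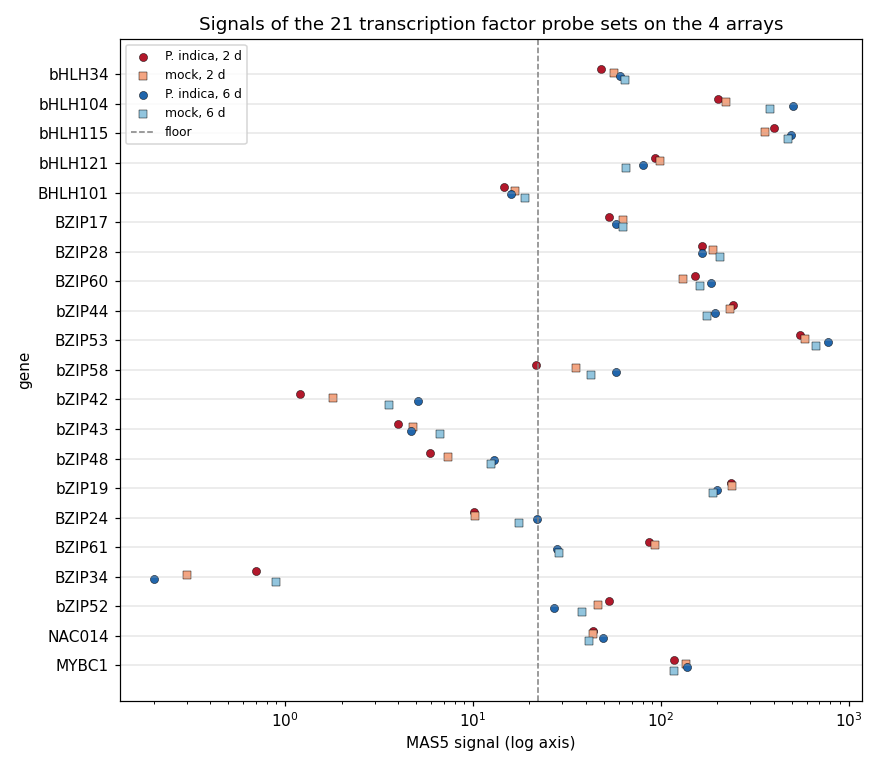
MAS5 signal (log axis) of each of the 21 probe sets on the arrays of P. indica-exposed (circles) and mock-treated (squares) roots after 2 d and 6 d, with the floor of 22.2 as a dashed line. Signals of BZIP53 lie between 551.3 and 775.9, and 6 genes lie under the floor on every array.

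Each probe set has its own probes, so signals are compared between arrays and not between genes. Of the 21 probe sets, 14 lay above the floor on all 4 arrays, bZIP58 on 3, and 6 on none. The 6 are bZIP42, bZIP43, bZIP48, BZIP24, BZIP34 and BHLH101, whose highest signal was 22 (BZIP24, exposed, 6 d), and no ratio is given for them.

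The differences between exposed and mock-treated roots are given beside those over all measured probe sets. After 2 d, 4 of the 15 measured genes had a higher and 11 a lower signal in exposed than in mock-treated roots, with a median log2 ratio of -0.08, against -0.03 over all 14118 measured probe sets. After 6 d, 10 had a higher and 5 a lower signal, with a median of 0.15, against -0.02 over all 14029. At 2 d, 0 of 15 genes were more than 1.5-fold higher, where the share over all measured probe sets was 2.77%, and 1 (bZIP58) was more than 1.5-fold lower, where that share was 2.39%. bZIP58 was measured at 2 d through the mock array alone, and the count was 0 with 32 added to each signal or with a floor at the 60th percentile. At 6 d, 0 of 15 passed 1.5-fold in either direction, where 2.27% of all measured probe sets were higher and 1.35% lower. Of the 15 genes, 0 passed 2-fold at either time point, where 1.02% of all measured probe sets did at 2 d and 0.499% at 6 d. The 3-fold limit of the study was likewise passed by 0 of the 15, against 0.347% of all measured probe sets at 2 d and 0.107% at 6 d. With 15 genes, counts of 0 or 1 lie near these shares and do not set the group apart. Less than 1.2-fold apart were 14 of the 15 genes at 2 d, where 69.1% of all measured probe sets were, and 10 at 6 d, where 73.3% were.

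The size of the differences of the 15 members was close to that over all measured probe sets at 2 d and larger at 6 d. The median absolute log2 ratio of the members was 0.16 at 2 d and 0.20 at 6 d, and over all measured probe sets it was 0.17 and 0.15. For the 8 measured genes of the same families under other symbols it was 0.12 and 0.09, and for the 23 genes together 0.14 and 0.155. The larger size at 6 d thus held for the members and not for the other genes of these families. Of all measured probe sets 90% differed by less than 0.47 on the log2 scale at 2 d and by less than 0.42 at 6 d. Only bZIP58 lay outside this range at 2 d, and bZIP58 and bZIP52 at 6 d. Both genes are dim, and at 6 d both lay within the 90% limit of probe sets of like mean signal, as given below. The brighter bHLH104 lay inside the range over all probe sets at 6 d but above the limit of its own signal class, also given below. These ranges are the spread across genes and not an error between replicates.

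**Figure D2:**
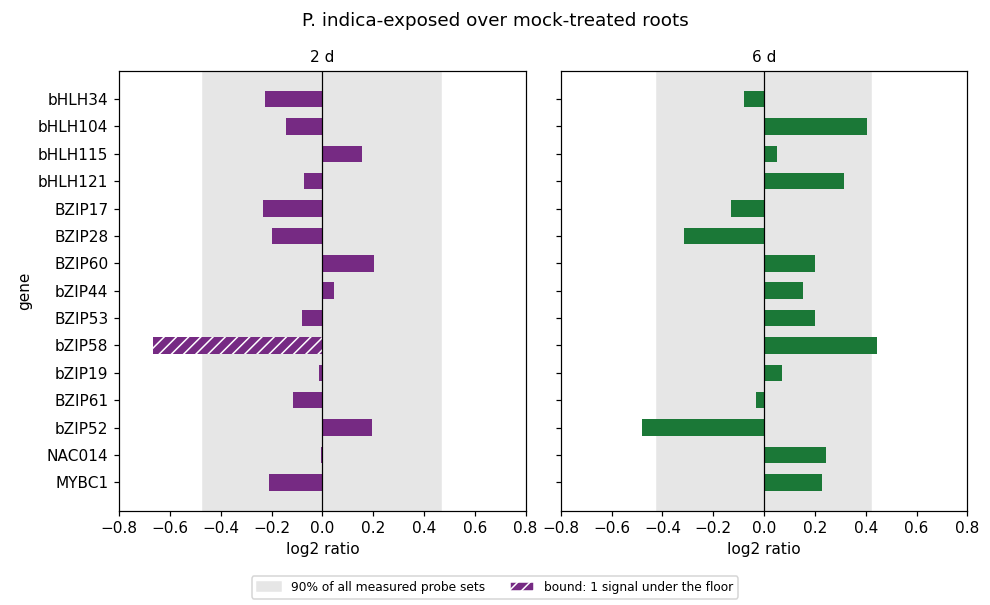
Log2 ratio of P. indica-exposed over mock-treated roots at 2 d (left) and 6 d (right) for the 15 measured genes, with a grey band that holds 90% of all measured probe sets and a hatched bar for a bound (1 signal under the floor). bZIP58 leaves the band at 2 d with -0.67 as a bound (the ratio is this low or lower), and bZIP58 with 0.44 and bZIP52 with -0.48 leave it at 6 d.

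The 5 bHLH genes all belong to the iron deficiency cascade. bHLH34, bHLH104 and bHLH115 are factors of subgroup IVc, which with ILR3 activate the subgroup Ib genes, and bHLH121 is their partner. bHLH104 (AT4G14410) had a signal of 201.2 in exposed and 222.3 in mock-treated roots at 2 d. At 6 d it had 505.8 in exposed and 382 in mock-treated roots, a 1.32-fold higher value with a log2 ratio of 0.40. At 6 d 11.2% of all measured probe sets had a larger absolute ratio than bHLH104. Among probe sets with a mean signal over 200, as that of bHLH104 was, 90% differed by up to 0.33 at 6 d. The difference of bHLH104 was above this limit. The exposed root was thus the dimmer sample at 2 d and the brighter one at 6 d, and both 6 d arrays were brighter than both 2 d arrays.

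bHLH121 (AT3G19860) had signals of 93.8 in exposed and 98.6 in mock-treated roots at 2 d, a log2 ratio of -0.07. At 6 d it had 80.8 in exposed and 65 in mock-treated roots, a log2 ratio of 0.31. Here the mock-treated sample at 6 d was the lowest of the 4. bHLH115 (AT1G51070) differed little, with 399.8 in exposed and 358.7 in mock-treated roots at 2 d and 492.4 in exposed and 474.8 in mock-treated roots at 6 d. bHLH34 (AT3G23210) had 48 in exposed and 56.1 in mock-treated roots at 2 d, a log2 ratio of -0.22. At 6 d its values were 61 in exposed and 64.4 in mock-treated roots, a log2 ratio of -0.08.

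The median log2 ratio of the 4 measured bHLH genes was -0.11 at 2 d and 0.18 at 6 d. At 2 d 1 was higher and 3 were lower, and at 6 d 3 were higher and 1 was lower. The summed green shoot signal given above moved in the same directions, and its part in these values was not tested. BHLH101 (AT5G04150), a subgroup Ib gene whose transcript accumulates in iron-deficient Arabidopsis roots, lay under the floor on all arrays, with 14.6 in exposed and 16.7 in mock-treated roots at 2 d and 15.9 in exposed and 18.9 in mock-treated roots at 6 d. ILR3 (AT5G54680), the subgroup IVc gene that carries another symbol and is also known as bHLH105, had signals of 314.8 in exposed and 290.1 in mock-treated roots at 2 d and of 310.1 in exposed and 295.5 in mock-treated roots at 6 d. Of the 14 genes in the list of iron deficiency regulators 6 are named in the annotation and 5 were measured, with medians of -0.07 at 2 d and 0.07 at 6 d, and 0 of them passed 1.5-fold.

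The ER stress factors BZIP17, BZIP28 and BZIP60 were all above the floor. BZIP17 and BZIP28 are anchored in the ER membrane and released by proteolysis, and the mRNA of BZIP60 is spliced by the ER sensor IRE1 during stress. BZIP60 (AT1G42990) had a signal of 152 in exposed and 132 in mock-treated roots at 2 d, and 185.2 in exposed and 161 in mock-treated roots at 6 d. Its log2 ratio was 0.20 at both time points, and the exposed sample was the brighter one each time. BZIP28 (AT3G10800) had 165.2 in exposed and 189.3 in mock-treated roots at 2 d, and 165.8 in exposed and 206.3 in mock-treated roots at 6 d. Its log2 ratios were -0.20 and -0.32, so that the exposed sample was the dimmer one each time. BZIP17 (AT2G40950) was 1.18-fold lower in exposed roots at 2 d, with 53.3 in exposed and 62.7 in mock-treated roots, and 1.09-fold lower at 6 d, with 57.8 in exposed and 63.3 in mock-treated roots. BZIP17 and BZIP28 thus had lower values and BZIP60 higher values in exposed roots at both time points, and none of these ratios reached 1.5-fold. Of all measured probe sets 36.0% had a larger absolute ratio at 2 d than BZIP17, 43.8% than BZIP28 and 42.4% than BZIP60. At 6 d these shares were 55.8%, 19.3% and 38.2%, in that order. With bZIP19, the list of unfolded protein and zinc regulators had 4 measured genes of 6, with medians of -0.11 at 2 d and -0.03 at 6 d, and 0 passed 1.5-fold.

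Of the 6 group S genes 3 were measured. The S1 factors BZIP53 and bZIP44, which are known for translational repression by sucrose and for the activation of amino acid catabolism or seed genes as heterodimers, were above the floor on all arrays. BZIP53 (AT3G62420) had 551.3 in exposed and 583.1 in mock-treated roots at 2 d, a log2 ratio of -0.08. At 6 d it had 775.9 in exposed and 674.5 in mock-treated roots, a log2 ratio of 0.20. bZIP44 (AT1G75390) had 241.1 in exposed and 233.3 in mock-treated roots at 2 d, and 195.4 in exposed and 175.5 in mock-treated roots at 6 d, with log2 ratios of 0.05 and 0.15. Of the 9 genes listed for groups C and S1, only these 2 were found, and their median was -0.02 at 2 d and 0.18 at 6 d.

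bZIP58 (AT1G13600) had the largest ratio of the 15 genes at 2 d and the second largest at 6 d. Exposed roots gave 21.6 at 2 d, just under the floor, against 35.2 in mock-treated roots, a signal at least 1.59-fold lower. The 6 d signals were 58.1 in exposed and 42.7 in mock-treated roots, 1.36-fold higher. The exposed roots thus gave the lowest and the highest of the 4 values. Among probe sets whose mean signal over the 4 arrays lay between the floor and 50, as that of bZIP58 did, 90% differed by up to 0.55 on the log2 scale at 2 d and by up to 0.52 at 6 d. The difference of bZIP58 was above this at 2 d and below it at 6 d. When 32 was added to all signals and no floor was set, the log2 ratio of bZIP58 was -0.33 at 2 d. A floor at the 60th percentile (61.4) left the gene unmeasured.

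The remaining bZIP genes fall into groups F, E and I. bZIP19 (AT4G35040), which activates zinc transporter genes upon zinc deficiency, was nearly equal in both conditions. It had 237.5 in exposed and 239.9 in mock-treated roots at 2 d, and 199.8 in exposed and 190.4 in mock-treated roots at 6 d. BZIP24, its relative of group F linked to the salt response, lay under the floor with signals between 10.1 and 22. BZIP61 (AT3G58120) of group E also had like values in both conditions, with 86.5 in exposed and 93.6 in mock-treated roots at 2 d and 28 in exposed and 28.6 in mock-treated roots at 6 d, while its group E relative BZIP34, known from pollen, had signals of at most 0.9.

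bZIP52 (AT1G06850), a group I factor, had the largest ratio at 6 d. Its 6 d signals were 27.2 in exposed and 37.9 in mock-treated roots, 1.39-fold lower, and its 2 d signals 53.2 in exposed and 46.4 in mock-treated roots, 1.15-fold higher. The exposed roots gave the highest and the lowest value of the 4. Other group I genes are named by locus in the platform annotation and carry their bZIP names only in RefSeq. Of these, AT2G21230 (bZIP30) had 80.3 in exposed and 112.8 in mock-treated roots at 6 d, a log2 ratio of -0.49, and 128.8 in exposed and 118.9 in mock-treated roots at 2 d, a ratio of 0.12. Of probe sets with a mean signal between 50 and 200, as that of bZIP30 was, 90% differed by up to 0.41 at 6 d. The difference of bZIP30 was above this limit. AT4G38900 (bZIP29), AT2G40620 (bZIP18) and AT1G06070 (bZIP69) had 6 d log2 ratios of 0.11, 0.07 and -0.04 and 2 d ratios of 0.17, -0.11 and -0.21, in that order. bZIP52 and bZIP30 were thus lower in exposed roots at 6 d and the other 3 lay closer to 0. The mean signal of bZIP52 over the 4 arrays lay, like that of bZIP58, between the floor and 50. Among such probe sets 90% differed by up to 0.52 on the log2 scale at 6 d, and bZIP52 at -0.48 lay within this limit. With 32 added to each signal, the log2 ratio of bZIP52 at 6 d was -0.24.

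NAC014 (AT1G33060) and MYBC1 (AT2G40970) are the only NAC and MYB members, and neither stands for its family. NAC014 had 43.6 in exposed and 43.8 in mock-treated roots at 2 d, and 49.1 in exposed and 41.5 in mock-treated roots at 6 d. MYBC1, a MYB-like gene whose loss alters freezing tolerance, had 118 in exposed and 136.5 in mock-treated roots at 2 d, a log2 ratio of -0.21. At 6 d it had 137.2 in exposed and 117.1 in mock-treated roots, a log2 ratio of 0.23. For both genes the exposed sample was the higher one at 6 d.

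The directions at the 2 time points were compared over the 15 genes. For 7 genes the signal in exposed roots was lower than in mock-treated roots at 2 d and higher at 6 d, and for 1 (bZIP52) it was the other way round. A further 3 were higher and 4 lower at both time points. Over the 13538 probe sets measured at both time points, 21.8% were lower at 2 d and higher at 6 d and 19.6% the other way round. The 7 genes are bHLH104, bHLH121, BZIP53, bZIP58, bZIP19, NAC014 and MYBC1. The log2 ratios of bZIP19 and NAC014 at 2 d, -0.01 for both, changed sign under 3 of the alternative settings each. The summed green shoot signal was likewise lower in exposed roots at 2 d and higher at 6 d, and its part was not tested.

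Differences between the time points were larger than those between the conditions for most members, as for most probe sets of the arrays. For 6 d over 2 d, the median absolute log2 ratio of the members was 0.30 (exposed) and 0.29 (mock), against 0.29 (exposed) and 0.25 (mock) over all measured probe sets. The sum of the absolute ratios over time exceeded the sum of those over the conditions for 12 of the 15 genes, and for 61.2% of the 13538 probe sets measured at both time points. Of the 15 genes, 8 were higher at 6 d in both conditions, where 38.7% of these probe sets were, and 5 were lower in both, where 36.4% were.

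In exposed roots 3 of the 15 genes differed by more than 2-fold between the time points, where 4.79% of all measured probe sets did, and in mock-treated roots 1 did, where the share was 3.48%. BZIP61 was in both counts. It was 3.09-fold lower at 6 d than at 2 d in exposed roots and 3.27-fold lower in mock-treated roots. bHLH104 was 2.51-fold higher at 6 d in exposed roots and 1.72-fold higher in mock-treated roots. In exposed roots bZIP58 was at least 2.62-fold higher and bZIP52 1.96-fold lower at 6 d, whereas in mock-treated roots bZIP58 was 1.21-fold higher and bZIP52 1.22-fold lower. bHLH121 was 1.16-fold lower at 6 d in exposed roots and 1.52-fold lower in mock-treated roots. Time of co-cultivation, seedling age and the brightness of the hybridization controls cannot be told apart in these comparisons.

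**Figure D3:**
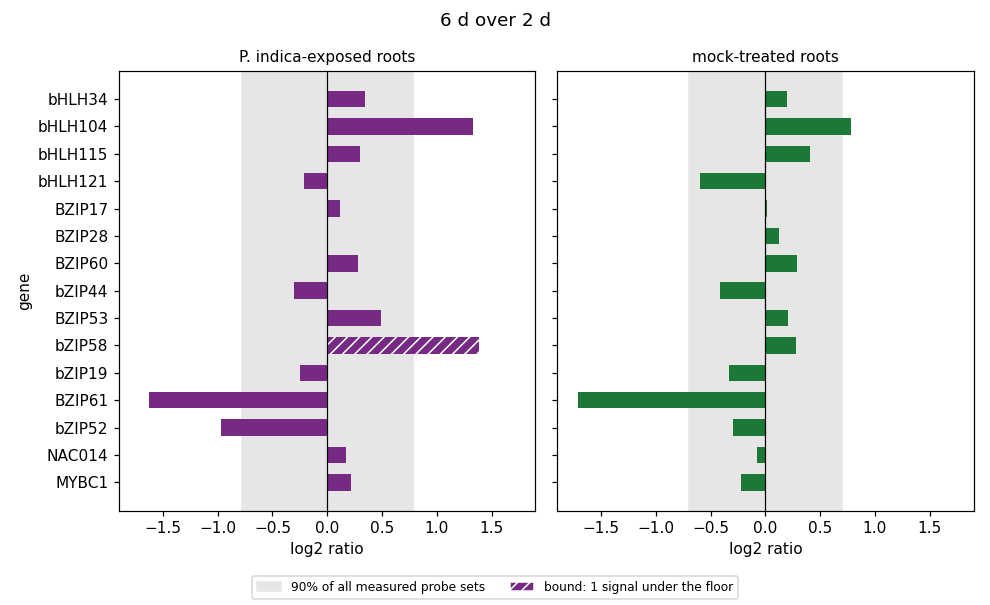
Log2 ratio of 6 d over 2 d in P. indica-exposed (left) and mock-treated roots (right) for the 15 measured genes, with a grey band that holds 90% of all measured probe sets and a hatched bar for a bound (1 signal under the floor). BZIP61 lies at -1.63 and -1.71 and bHLH104 at 1.33 and 0.78, outside the band in both conditions.

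Genes of the same families that the platform lists under another symbol or by locus were identified from RefSeq synonyms. There are 11 of them, of which 8 were measured. The median of their log2 ratios was -0.02 at 2 d, against 0.02 at 6 d. None passed 1.5-fold at either time point. Over all measured probe sets 2.77% were higher and 2.39% lower by this limit at 2 d, and 2.27% higher and 1.35% lower at 6 d. With 8 genes, a count of none lies near these shares. The largest ratio at 2 d was that of EEL (AT2G41070), a group A factor of the seed also known as ATBZIP12. Of the 9 listed group A genes only EEL was found. Its 2 d signals were 27.4 in exposed and 40.1 in mock-treated roots, a log2 ratio of -0.55. The mean signal of EEL lay between the floor and 50, where 90% of probe sets differed by up to 0.55 at 2 d. EEL thus lay at the limit of its signal class. At 6 d EEL had 43.6 in exposed and 46.8 in mock-treated roots. PHV (AT1G30490), the only homeobox gene found in this way, is an HD-Zip III gene of organ polarity and vascular patterning, 1 of 4 in its list. It had 63.1 in exposed and 67.5 in mock-treated roots at 2 d and 102.6 in exposed and 105.9 in mock-treated roots at 6 d. The MYB-like gene AT5G47390 (MYBH), named for hypocotyl elongation, had log2 ratios of 0.05 and 0.27. Over time, AT2G40620 (bZIP18) had the largest difference of the 8, with log2 ratios of 6 d over 2 d of -1.04 in exposed and -1.23 in mock-treated roots.

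The other roles were not analysed here. Lists of regulators were matched only to the 21 members and the 11 genes under other symbols, without ambiguous matches. Of 201 genes in 21 lists, 14 were found in this way, and in 16 lists 0. The lists with no gene found are those of the regulators of indole and aliphatic glucosinolates, phenylpropanoids, secondary walls, suberin and root hairs, the stress MYB, stress NAC and membrane-bound NAC factors, the jasmonate bHLH factors, all 4 ERF lists, the TGA factors and HD-Zip I. An empty list means that no listed name matched, and not that the genes given here hold none of that role. MYB51, JUNGBRUNNEN1 and ERF105 were not analysed here.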

How the data were processed

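Root RNA was hybridized to Affymetrix ATH1 arrays, and the authors' deposited values are linear intensity values (MAS5 signals) for 22810 probe sets on 4 arrays. MAS5 is the tool in the submitters' processing notes, which state no version. The 2% trimmed means of the arrays lay between 99.2 and 99.3, so the deposited scale was kept. Of the probe sets, 64 controls were left out. Symbols were taken from the platform annotation and locus codes from the TAIR10.1 RefSeq table through Entrez Gene identifiers, which matched for all 21 members. No coordinates and no sequences are given.

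With 1 array per condition no test was made, and the t-test of the study could not be repeated. The 3-fold limit of the study was supplemented by 2-fold and 1.5-fold. Dim signals vary most, and their ratios depend on the floor. The number of arrays limits the precision. Counting was tested on simulated data with changes beyond the limit, planted only in probe sets well above the floor. That test does not cover dim genes such as bZIP58. Its noise was a set value and not taken from these arrays, so it checks the counting only.

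The members, gene lists and the rule for named genes (ranks within families, list members and genes the study names) were chosen with earlier results of these data known. The order of the genes by role, the 1.2-fold limit and the limit of 0.1 on the log2 scale for values that moved were set after the values were seen. Alternatives were other floors, no floor, an added signal of 32, quantile normalization, centring, a loess fit (span 0.3) and narrower memberships. Python 3.11.15, numpy 2.4.6, pandas 2.3.3, statsmodels 0.14.6 and matplotlib 3.10.9 were used.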

Additional observations from a re-analysis of the deposited data

Results flagged for a closer look

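For 3 of the 15 measured genes the difference between exposed and mock-treated roots ran in opposite directions at the 2 time points and was, at each of them, larger than the median absolute log2 ratio of all measured probe sets. This limit was chosen after the values were seen. With 1 array per condition the difference between the time points was not tested. The same holds for 1220 of the 13538 probe sets measured at both time points, or 9.01%. The log2 ratio at 2 d minus that at 6 d was -1.11 for bZIP58, a bound and not a measured size, since its signal in exposed roots at 2 d lay under the floor and a lower signal would make the value more negative. It was 0.68 for bZIP52 and -0.44 for MYBC1. For bZIP58 and bZIP52 the sizes depend on how dim signals are treated, as the values below show.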

How the results depend on the processing

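No paired analysis was possible because each condition has 1 array and the labels carry no replicate numbers. Likewise no replicate could be left out. Over the alternatives the median log2 ratio of the members lay between -0.08 and -0.05 at 2 d and between 0.10 and 0.17 at 6 d, that of the bZIP genes between -0.08 and -0.03 and between 0.05 and 0.11, and that of the bHLH genes between -0.14 and -0.07 and between 0.05 and 0.20. The bHLH median at 6 d was 0.0525 with the 20th percentile as the floor, where BHLH101 entered as the 5th gene. The number of genes more than 1.5-fold lower at 2 d was 0 with a floor at the 60th percentile, where bZIP58 was not measured, and 0 with 32 added to each signal. The other 195 values of medians and counts under the alternatives stayed within 0.1 on the log2 scale or within 1.5 times the count. They include those of the narrower memberships, which could not differ because the members stayed the same. Most of the counts were 0 from the start, so the number of unmoved values does not measure robustness. Of 202 values of single genes 5 moved by more than 0.1: BZIP17 at 2 d was -0.03 under the 60th percentile floor, and with 32 added bZIP58 was -0.33 at 2 d and 0.27 at 6 d, bZIP52 -0.24 and NAC014 0.14 at 6 d. RefSeq symbols, probe set suffixes, 1 probe set per gene and the spelling of HB symbols left the 21 members as they were, and protein signatures were not used. Depth is not defined for arrays; 11 members were measured over the 60th percentile, and over the 20th there were 19 at 2 d and 20 at 6 d.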
